A study of Mus musculus with 9 samples.

Results

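The genes of glycolysis and of the response to low oxygen were followed in the trunk epidermis of newborn mice that lack Alox12b and of wildtype newborns. They were given as 37 genes, from glucose carriers and glycolytic enzymes to the hypoxia-inducible factors, their oxygen-sensing hydroxylases and well known target genes. A gene was measured where a probe set of the array names it as its only gene, and where several did so the brightest on average was used. By this rule 33 of the 37 were measured, among 18193 genes in all, and Gpi1, Gapdh, Eno1 and Bnip3l were not analysed here.

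Glycolysis splits glucose into pyruvate in the cytosol and yields ATP without oxygen. When oxygen falls, the prolyl hydroxylases that mark HIF-1alpha and HIF-2alpha for destruction slow down, and the stabilised factors pair with ARNT and bind short DNA elements with the core ACGTG or GCGTG near their target genes. Targets include most glycolytic genes, so both programmes share members. The epidermis has no blood vessels of its own, is mildly hypoxic and is known as a strongly glycolytic tissue.

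The 4 knockout arrays came from homozygous offspring of heterozygous parents and the 5 wildtype arrays from animals for which the labels name the strain 129S6; the strain of the knockouts is not named. All animals were taken right after birth, with no treatment, and the epidermis was lifted from the dermis by hand once hot saline had loosened it. Each array is called a biological replicate. Values are log2 expression of 45037 probe sets on Affymetrix Mouse Genome U430 2.0 arrays, with array medians between 3.14 and 3.31. Precision is limited by how few arrays there are. A log2 difference of 1 is a 2-fold change.

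The sheets carried keratinocyte markers at high levels, with Krt1 at 14.06 ± 0.05 (SD, n = 4) in knockout and 14.02 ± 0.03 (SD, n = 5) in wildtype. Over the 11 measured keratinocyte genes 7 were lower in knockout, with a median of -0.22. At an unadjusted p of 0.05 in limma 3 were lower and 1 higher, where 10.7% of all genes were lower and 7.08% higher. Trp63, a factor of basal cells, differed most, at 6.12 and 7.54, and 0 passed after adjustment. The part of these markers in the values of the members was not tested. The sex of the animals is not labelled. Xist, the RNA of the inactive X chromosome, ranged from 9.99 to 10.20 in knockout and from 3.23 to 4.32 in wildtype except for array 4 at 10.95, so genotype and sex overlap. Wildtype array 5 stood apart from the other wildtype arrays for many of the members, and differences that it moves most are given with and without it. It was singled out from these same values, so p-values and gaps between the groups without it are descriptions only.

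None of the 33 measured members passed the threshold between knockout and wildtype, an adjusted p of 0.05 in limma with Benjamini-Hochberg adjustment over all genes, against 1.24% of all genes tested (0.511% higher and 0.731% lower). Of their 74 probe sets 0 passed in a fit of all probe sets, where 1.11% did. At an unadjusted p of 0.05, 3 members were higher in knockout, Hk2, Vegfa and Slc2a3, and 0 were lower, where the same mark took 7.08% of all genes as higher and 10.7% as lower. The difference was positive for 24 of 33 members, or 72.7%, against 53.5% of all genes, with a median of 0.14 against 0.02. The largest difference belonged to Hk2, at 2.00 on the log2 scale or 4.01-fold, followed by Ankrd37 at 1.46, Vegfa at 0.87 and Adm at 0.80. For 24 of the 33 members the 95% interval of the difference lay within 1 either way, so a 2-fold change of their measured value was outside it. Among these are Slc2a3, Slc16a3 and Car9, whose low levels may not lie above background, so their intervals may say little of the transcript. The interval reached 1 or more for 8 members, Hk2, Ankrd37, Vegfa, Adm, Pfkfb3, Slc2a1, P4ha1 and Pfkfb4, and -1 or less for Pdk1. In these sheets more RNA per cell and more cells of a type cannot be told apart.

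**Figure D1:**
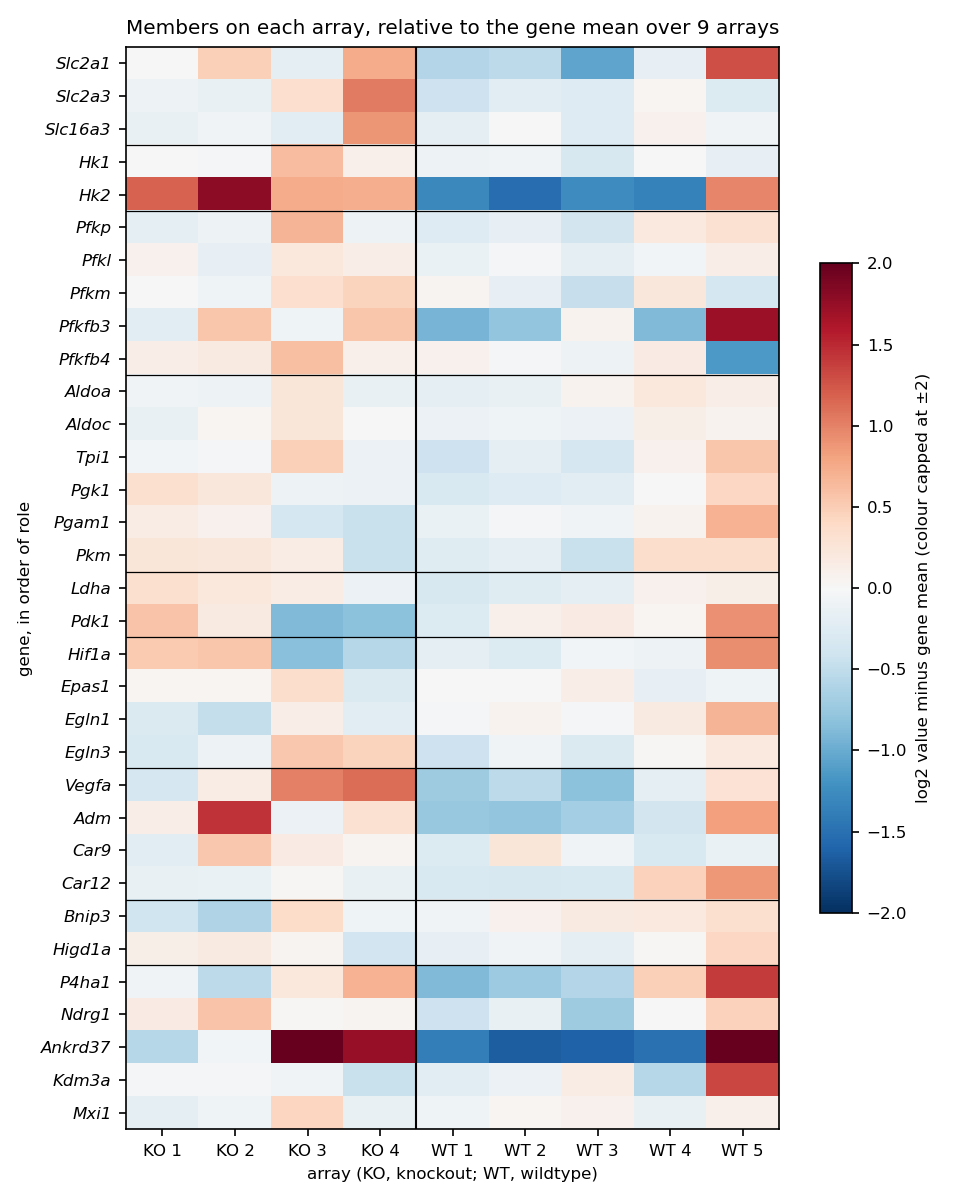
Each row is 1 of the 33 measured members in order of role, from transporters at the top to other hypoxia targets at the bottom, and each column is 1 array. Colour gives the log2 value minus the gene's mean over the 9 arrays, red for higher, and is capped at 2 either way. Hk2 is high on all 4 knockout arrays and on wildtype array 5, and wildtype array 5 is the reddest wildtype column.

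Hexokinases trap glucose in the cell as glucose 6-phosphate. Hk2, the inducible form that sits on the mitochondrial surface, read 8.46, 9.08, 8.03 and 8.01 on knockout arrays 1 to 4. It read 6.0, 5.76, 6.02 and 5.92 on wildtype arrays 1 to 4 and 8.26 on wildtype array 5. All knockout arrays thus lay above wildtype arrays 1 to 4, while wildtype array 5 lay inside the knockout range. Over all arrays the means were 8.40 ± 0.50 (SD, n = 4) and 6.39 ± 1.05 (SD, n = 5), a difference of 2.00 (SE 0.47, 95% interval 0.96 to 3.04) with a limma adjusted p of 0.0725. Without wildtype array 5 the difference was 2.47 (SE 0.22, 95% interval 1.98 to 2.96), or 5.54-fold, with a limma adjusted p of 0.000626. Hk2 was then the 1 member of 33 that passed, where 1.54% of all genes passed, 0.599% as higher and 0.945% as lower. That array was picked out by values such as its 8.26 for Hk2. Leaving it out took the wildtype SD from 1.05 to 0.12, so the smaller p is not an independent test. With quantile normalization Hk2 was again the 1 member that passed (2.11, limma adjusted p of 0.0416), where 1.59% of all genes did, 0.808% as higher and 0.786% as lower. Array weights were 0.359 for wildtype array 5 and 0.323 and 0.313 for knockout arrays 3 and 4. The highest was 3.37, for knockout array 2. With these weights 4 members passed as higher and 2 as lower, against 9.04% of all genes, 3.91% as higher and 5.12% as lower. Hk2 was among the 4 (2.77, limma adjusted p of 0.000239). Wildtype array 4, the wildtype array with high Xist, read 5.92 for Hk2 and so lay with wildtype arrays 1 to 3. With the Xist level in the fit the difference was 2.57 and the limma adjusted p was 0.456, in a fit where 0.0495% of all genes passed. Hk2 had 1 probe set, so no second probe set checks it.

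Hk1, the constitutive hexokinase, read 8.54, 8.54, 9.17 and 8.65 on the knockout arrays and 8.45, 8.48, 8.23, 8.55 and 8.39 on the wildtype arrays. The groups overlapped narrowly, and the difference of 0.31 (95% interval -0.02 to 0.63) had a limma adjusted p of 0.309. Knockout array 3 was the highest, and a dimmer probe set of Hk1 differed by -0.06.

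**Figure D2:**
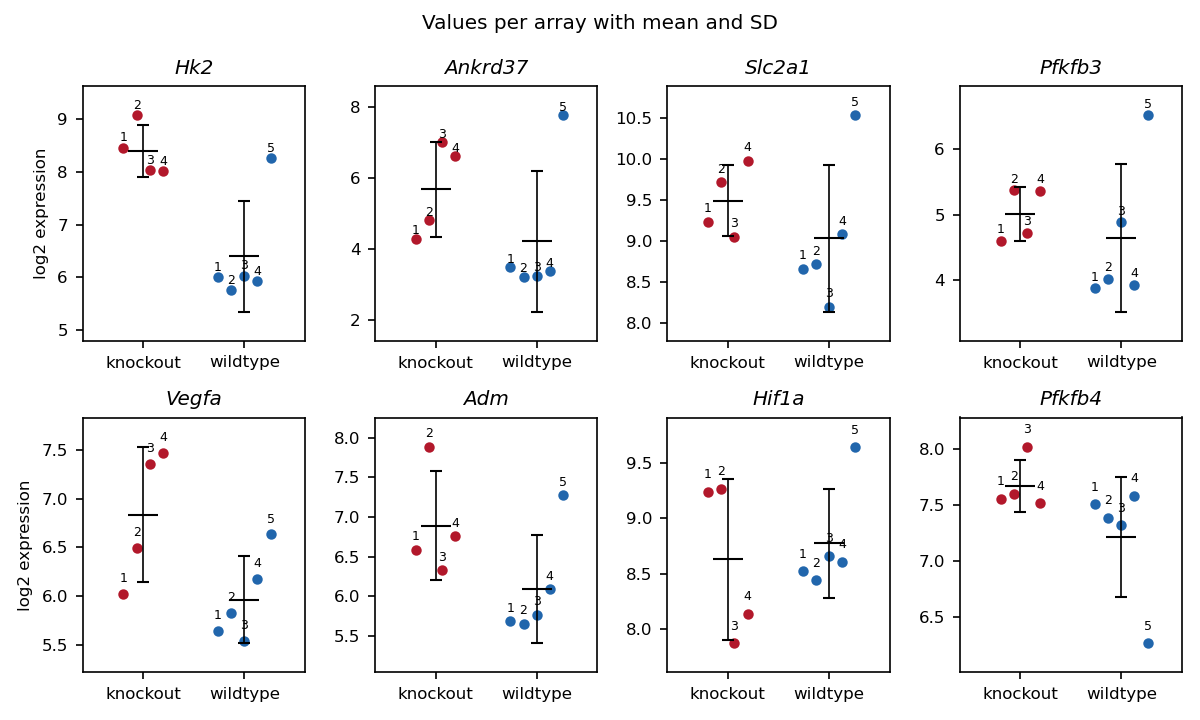
Points give the log2 expression of 8 members on each array, with the array number above each point; the horizontal bar and whiskers are the group mean and SD (n = 4 knockout, n = 5 wildtype), and each panel has its own scale. Wildtype array 5 is the highest wildtype point in every panel but Pfkfb4, where it is the lowest at 6.27.

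The start of 4 members is shown because their values turn on wildtype array 5, with Hk2, Ankrd37 and Slc2a1 high there and Pfkfb4 low. Each run is the RefSeq promoter window of build GRCm38.p6, 250 bases before to 50 after the start site, 5′ to 3′ on the gene's strand. Capitals mark ACGTG or GCGTG on either strand, so they also read CACGT or CACGC. The windows are chr6:82774405-82774704 for Hk2 and chr8:45999801-46000100 for Ankrd37, both on the minus strand, and chr4:119108495-119108794 for Slc2a1 and chr9:108991652-108991951 for Pfkfb4, both on the plus strand.
Hk2: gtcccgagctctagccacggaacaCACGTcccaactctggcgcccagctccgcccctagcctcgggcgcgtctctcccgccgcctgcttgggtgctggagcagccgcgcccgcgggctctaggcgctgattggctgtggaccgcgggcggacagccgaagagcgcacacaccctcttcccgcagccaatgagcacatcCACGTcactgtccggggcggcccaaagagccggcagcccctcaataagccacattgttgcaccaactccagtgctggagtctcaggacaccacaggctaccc
Ankrd37: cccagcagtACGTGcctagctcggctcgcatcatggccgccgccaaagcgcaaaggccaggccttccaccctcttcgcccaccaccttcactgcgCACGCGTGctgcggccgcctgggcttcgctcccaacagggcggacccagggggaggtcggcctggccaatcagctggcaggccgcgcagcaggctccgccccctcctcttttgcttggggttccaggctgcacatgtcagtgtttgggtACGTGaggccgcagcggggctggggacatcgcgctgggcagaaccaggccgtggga
Slc2a1: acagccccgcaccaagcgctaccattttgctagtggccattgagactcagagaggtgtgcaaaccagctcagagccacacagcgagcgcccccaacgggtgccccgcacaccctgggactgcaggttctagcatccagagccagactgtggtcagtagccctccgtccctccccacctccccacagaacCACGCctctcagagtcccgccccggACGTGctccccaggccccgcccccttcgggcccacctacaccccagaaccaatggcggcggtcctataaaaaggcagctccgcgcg
Pfkfb4: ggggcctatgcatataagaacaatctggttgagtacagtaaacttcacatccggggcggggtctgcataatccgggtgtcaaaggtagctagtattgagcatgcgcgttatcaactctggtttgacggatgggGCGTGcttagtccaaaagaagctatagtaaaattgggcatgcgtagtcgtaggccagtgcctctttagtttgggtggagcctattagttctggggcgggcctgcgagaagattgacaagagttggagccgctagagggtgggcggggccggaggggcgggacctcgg
Hk2 held ACGTG at positions -226 and -52 from the start site, and Ankrd37 at -241 and -6 with an overlapping pair of GCGTG matches at -155 and -152. Slc2a1 held ACGTG at -36 and GCGTG at -61, and Pfkfb4 held GCGTG alone, at -117. Pfkfb3, P4ha1, Kdm3a, Adm and Hif1a, not shown, were also over 1 higher on wildtype array 5 than the mean of the other wildtype arrays. Of these Pfkfb3, P4ha1 and Hif1a held ACGTG, while Adm and Kdm3a held GCGTG without ACGTG. The table had 46 windows for 30 of the 33 measured members. ACGTG was in 56.5% of these windows and in 19.6% of the 32851 windows of all genes, and either core was in 76.1% and 43.8%. The longer CACGTG, the E-box, contains ACGTG on both strands and was in 10.9% and 7.15%. Windows of 1 gene can overlap, the members were listed with their known regulation in view, and base composition was not matched, so these shares are descriptions and a match is not a site of binding.

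Among the transporters, Slc2a1, which encodes the main glucose carrier of the epidermis, read 9.24, 9.72, 9.05 and 9.98 in knockout. In wildtype it read 8.66, 8.72, 8.19, 9.08 and 10.54. Wildtype array 5 was the highest of all 9 and the groups overlapped, with a difference of 0.46 (95% interval -0.44 to 1.36) and a limma adjusted p of 0.571. Without that array the difference was 0.83 (95% interval 0.31 to 1.36) with a limma adjusted p of 0.125. It was 0.25 without wildtype array 3 and 0.30 without knockout array 4. Its 3 probe sets differed by 0.46, 0.53 and 0.40. Slc2a3, a high-affinity glucose carrier of neurons and blood cells, read 2.70, 2.65, 3.13 and 3.83 in knockout and 2.38, 2.57, 2.55, 2.83 and 2.53 in wildtype. Its difference was 0.51 (limma adjusted p of 0.268), and 0.26 without knockout array 4, the highest. The dimmer probe sets of Slc2a3 differed by 0.15, 0.02 and -0.02. The lactate exporter gene Slc16a3 was also highest on knockout array 4, at 3.65 against 2.51 to 2.84 on the other 8 arrays. On the same array fibroblast markers were high, with a mean over the 8 genes of 9.05 against 5.37 to 7.68 on the others, and smooth muscle markers had a mean of 5.46 against 3.21 to 3.60, and their part in these values was not tested. Slc2a3, Slc16a3 and Car9 read under 4 on every array, detection calls were not used here, and these levels may not lie above background.

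Phosphofructokinase commits sugar to glycolysis, and the PFKFB enzymes set the level of its activator fructose 2,6-bisphosphate. The subunit genes gave close means in knockout and wildtype, 8.29 and 8.16 for Pfkp, 8.0 and 7.88 for Pfkl and 5.80 and 5.50 for Pfkm. Pfkm, the muscle form, read 5.62, 5.54, 5.97 and 6.07 on the knockout arrays and 5.69, 5.47, 5.18, 5.87 and 5.28 on the wildtype arrays, with overlap and a difference of 0.31 (95% interval -0.08 to 0.69). Pfkfb4 read 7.56, 7.61, 8.02 and 7.52 in knockout and 7.51, 7.39, 7.32, 7.58 and 6.27 in wildtype. Its difference of 0.46 had a limma adjusted p of 0.362 and was 0.23 without wildtype array 5, the lowest of all. Pfkfb3, the inducible form, ran the other way on that array. It read 4.60, 5.37, 4.72 and 5.36 in knockout and 3.88, 4.03, 4.88, 3.93 and 6.52 in wildtype, with a difference of 0.36 over all arrays and 0.83 without array 5 (95% interval 0.26 to 1.41, limma adjusted p of 0.160). The dimmer probe set of Pfkfb3 gave means of 2.39 and 2.40, a difference of -0.02, with no wildtype array above 2.57. Its levels may not lie above background.

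The enzymes that turn fructose 1,6-bisphosphate into pyruvate differed least. Over the 6 measured genes the differences ran from -0.25 for Pgam1 to 0.15 for Pgk1, and all 6 intervals lay within 1 either way. The aldolase genes gave means of 11.07 in knockout and 11.10 in wildtype for Aldoa and 9.26 and 9.21 for Aldoc. Triose phosphate isomerase, Tpi1, gave 10.51 and 10.38, and the pyruvate kinase gene Pkm 8.25 and 8.18. Pgk1, the X-linked phosphoglycerate kinase gene, read 11.37, 11.27, 10.95 and 10.92 in knockout and 10.74, 10.79, 10.84, 11.05 and 11.46 in wildtype. Wildtype array 5 was again above every knockout array, and the limma adjusted p was 0.658. Pgam1, for phosphoglycerate mutase, read 9.48, 9.43, 8.99 and 8.88 in knockout and 9.19, 9.31, 9.27, 9.41 and 10.04 in wildtype. Its difference of -0.25 was -0.10 without wildtype array 5.

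Pyruvate can be reduced to lactate or enter the mitochondrion. Ldha, for the lactate dehydrogenase subunit of glycolytic tissue, read 10.96, 10.85, 10.80 and 10.52 in knockout and 10.33, 10.41, 10.46, 10.73 and 10.76 in wildtype. Knockout arrays 1 to 3 were above all wildtype arrays and knockout array 4 was not, and the difference of 0.25 (95% interval -0.06 to 0.55) had a limma adjusted p of 0.372. Pdk1 encodes a kinase that shuts the pyruvate dehydrogenase complex. It read 7.69, 7.30, 6.24 and 6.29 on the knockout arrays and 6.83, 7.21, 7.27, 7.15 and 8.03 on the wildtype arrays. The knockout arrays thus spanned more than wildtype arrays 1 to 4, and the difference of -0.42 (95% interval -1.14 to 0.30) had a limma adjusted p of 0.519. Leaving out single arrays moved it between -0.69 and -0.20, and without wildtype array 5 it was -0.24.

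Of the hypoxia-inducible factors, Hif1a gave means of 8.63 ± 0.73 (SD, n = 4) in knockout and 8.78 ± 0.49 (SD, n = 5) in wildtype. The knockout arrays read 9.24, 9.27, 7.87 and 8.14, on both sides of the 8.44 to 8.66 of wildtype arrays 1 to 4, and wildtype array 5 read 9.65. The difference of -0.15 (limma adjusted p of 0.847) was 0.07 without that array. HIF protein is set mainly by its breakdown, which arrays do not measure. Epas1, for HIF-2alpha, gave 10.21 and 10.14, with an interval of -0.23 to 0.37. Its dimmer probe set gave 7.0 and 6.37 with no overlap between the groups, a difference of 0.62 and a limma adjusted p of 0.0724 in a fit of all probe sets, so the 2 probe sets of Epas1 disagree in size.

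The prolyl hydroxylases pointed in different directions without passing. Egln1, for PHD2, the main oxygen sensor, read 8.41, 8.21, 8.82 and 8.47 in knockout and 8.64, 8.76, 8.65, 8.87 and 9.37 in wildtype, a difference of -0.38 (95% interval -0.77 to 0.01) with a limma adjusted p of 0.290. Knockout array 3 lay inside the wildtype range and the other knockout arrays below it. With array weights Egln1 passed as lower, at -0.45 and a limma adjusted p of 0.0399. The dimmer probe set of Egln1 gave means of 6.93 and 6.97 over all arrays, a difference of -0.04. Egln3, for the hypoxia-induced PHD3, read 11.19, 11.38, 12.03 and 11.93 in knockout and 11.08, 11.42, 11.20, 11.51 and 11.68 in wildtype. Knockout arrays 3 and 4 were the highest of all, and the difference of 0.26 had a limma adjusted p of 0.512.

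Among secreted and surface targets Vegfa and Adm differed most. Vegfa, which encodes the growth factor of blood vessels, read 6.02, 6.49, 7.36 and 7.47 on the knockout arrays and 5.64, 5.83, 5.54, 6.17 and 6.63 on the wildtype arrays. Knockout arrays 3 and 4 were above every wildtype array, while knockout arrays 1 and 2 lay inside the wildtype range. The difference of 0.87 (SE 0.32, 95% interval 0.17 to 1.58) had a limma adjusted p of 0.202. The second probe set of Vegfa differed by 0.24, and with the mean of both the difference was 0.55 (limma adjusted p of 0.447). Adm, for the vasoactive peptide adrenomedullin, read 6.59, 7.89, 6.33 and 6.76 in knockout and 5.68, 5.65, 5.76, 6.09 and 7.27 in wildtype. Its difference was 0.80 (95% interval -0.04 to 1.64, limma adjusted p of 0.304) over all arrays. Without wildtype array 5 the groups did not overlap, and the difference was 1.09 (95% interval 0.45 to 1.74, limma adjusted p of 0.104). Without knockout array 2, the highest, and with wildtype array 5 kept, it was 0.47. The other Adm probe set differed by 1.26. The membrane carbonic anhydrases gave 2.83 in knockout and 2.59 in wildtype for Car9 and 4.35 and 4.52 for Car12.

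The mitochondrial targets were level or slightly lower. Bnip3, a receptor for mitophagy, read 10.71, 10.50, 11.48 and 11.01 in knockout and 11.03, 11.19, 11.28, 11.30 and 11.43 in wildtype. The spread was wider in knockout, and the difference of -0.32 (95% interval -0.73 to 0.09) had a limma adjusted p of 0.385. With array weights Bnip3 passed as lower, at -0.55 and a limma adjusted p of 0.0260. Higd1a, a small protein of the inner mitochondrial membrane, read 11.40, 11.47, 11.33 and 10.90 in knockout and 11.12, 11.21, 11.10, 11.30 and 11.70 in wildtype, a difference of -0.01 (95% interval -0.37 to 0.35).

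Among the other targets Ankrd37, a small ankyrin repeat protein gene often used as a mark of HIF activity, varied most. It read 4.30, 4.82, 7.02 and 6.62 on the knockout arrays and 3.49, 3.22, 3.25, 3.39 and 7.78 on the wildtype arrays. Every knockout array was above wildtype arrays 1 to 4, and wildtype array 5 was above every knockout array. The readings of wildtype arrays 1 to 4 were near the array medians of 3.14 to 3.31 and may not lie above background. Ankrd37 had 1 probe set. Over all arrays the means were 5.69 ± 1.33 (SD, n = 4) and 4.23 ± 1.99 (SD, n = 5), a difference of 1.46 (95% interval -0.62 to 3.54) with a limma adjusted p of 0.438. Without wildtype array 5 it was 2.35 (95% interval 1.19 to 3.5) with a limma adjusted p of 0.0575. Ndrg1, a stress gene of differentiating epithelia, read 9.90, 10.29, 9.76 and 9.79 in knockout and 9.31, 9.59, 9.02, 9.73 and 10.20 in wildtype, with a difference of 0.37 and a limma adjusted p of 0.407. Without wildtype array 5 the difference was 0.52. Its 5 probe sets were all higher in knockout, by 0.22 to 0.37. P4ha1, a collagen prolyl hydroxylase subunit gene, gave means of 4.19 and 4.05, and its difference of 0.14 was 0.51 without wildtype array 5. The histone demethylase gene Kdm3a gave 7.55 and 7.82, a difference of -0.27 that was 0.04 without that array, and Mxi1, an antagonist of MYC, gave 8.81 and 8.81.

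**Figure D3:**
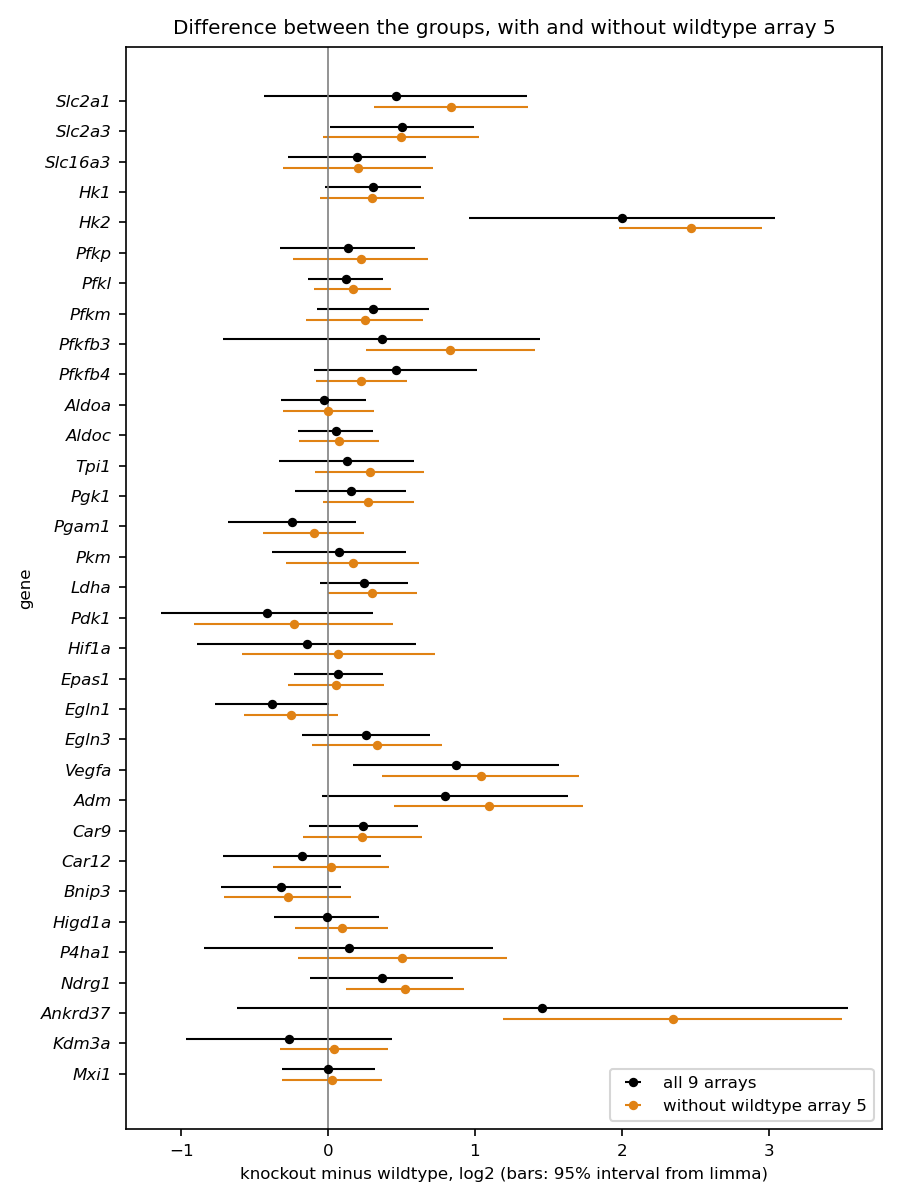
Points give the log2 difference, knockout minus wildtype, for each measured member and bars its 95% interval from limma, in black over all 9 arrays and in orange without wildtype array 5. Hk2 lies farthest from 0 in both fits, at 2.00 and 2.47, and most other black intervals cross 0.

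Wildtype array 5 read highest among the wildtype arrays for 23 of the 33 members, or 69.7%, and tied with wildtype array 4 for Pkm. Over all genes it was the highest for 29.2% and the lowest for 31.7%, and among the members it was the lowest for Pfkfb4 alone. Against the mean of the other wildtype arrays it was higher by 4.44 on the log2 scale for Ankrd37, 2.34 for Pfkfb3, 2.33 for Hk2, 1.87 for Slc2a1, 1.83 for P4ha1, 1.53 for Kdm3a, 1.48 for Adm and 1.09 for Hif1a. All 5 genes of the other-targets group and both pyruvate genes were highest there, while Epas1, Hk1, Slc2a3, Slc16a3 and Car9 lay within 0.08 of the other arrays' mean. The mean over all 33 members was 8.32 on this array, 7.48 to 7.75 on wildtype arrays 1 to 4 and 7.84 to 8.05 on the knockout arrays. The upper quartile of all probe sets was also highest on this array, at 5.37. It was 5.19 to 5.22 on the other wildtype arrays and 5.03 to 5.21 on the knockout arrays. A mean level of 5 or more was seen for 26 of the 33 members and for 7184 of 18193 genes. The part of this general shift of bright probe sets in the member values was not tested. Without wildtype array 5 the median difference of the members was 0.23, against 0.015 for all genes, and 28 of 33 were positive. The groups then did not overlap for 4 members, Hk2, Ankrd37, Adm and Ndrg1, where 10.5% of all genes did not overlap. With all arrays the count was 0 members against 8.28% of all genes. Wildtype array 5 was the highest wildtype array for all 4 of these members, so leaving it out favours a lack of overlap.

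Markers of other cells also set wildtype array 5 apart. It had the lowest means of all 9 arrays over 8 fibroblast genes (5.37, against 5.68 to 9.05), 8 melanocyte genes (3.39, against 4.40 to 5.07), 8 Langerhans cell and macrophage genes (4.38, against 5.17 to 6.59) and 10 skeletal muscle genes (3.76, against 4.31 to 6.23). The mean over 11 keratinocyte genes was 11.37 there, 11.52 to 11.73 on the other wildtype arrays and 11.06 to 11.41 on the knockout arrays. Over 10 endothelial genes it was 3.95, against 3.40 to 3.83 on the other arrays, and over 6 erythroid genes 2.88, against 3.10 to 3.58. Of these markers 0 passed between knockout and wildtype. Their part in the values of the members was not tested.

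Other genes of the same pathways were read from 6 lists of 7 to 47 measured genes. With all arrays 1 gene of these lists passed, where 1.24% of all genes did. This was Siah2, for a ubiquitin ligase that degrades prolyl hydroxylases, in the list of other hypoxia-inducible factor machinery. It read 7.01, 7.10, 6.08 and 6.84 in knockout and 5.14, 4.71, 5.37, 5.45 and 5.09 in wildtype. Every knockout array was above every wildtype array, and the rise of 1.61 (SE 0.22), or 3.05-fold, had a limma adjusted p of 0.0084. The rest of that list held 15 genes, among them Arnt, Vhl, Hif1an and Egln2, with differences of -0.30, -0.21, -0.18 and -0.16 that did not pass, and the list median over 16 genes was -0.12.

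The pyruvate dehydrogenase list, the gate from glycolysis to the mitochondrion, had 0 of 12 genes past the threshold, 5 lower and 0 higher at an unadjusted p of 0.05, and a median of -0.47. Here and for the lists below, the unadjusted mark took 10.7% of all genes as lower and 7.08% as higher. Pdha1, the X-linked catalytic subunit gene, gave means of 7.61 and 8.20, and the phosphatase regulator gene Pdpr 5.29 and 5.92, with limma adjusted p values of 0.163 and 0.168. Among 17 genes of glycogen and gluconeogenesis 0 passed, 4 were lower and 0 higher at an unadjusted p of 0.05, and the median was -0.24. The glycogen phosphorylase genes gave 4.16 in knockout and 4.57 in wildtype for Pygb and 7.33 and 8.10 for Pygl. Both lists were highest on wildtype arrays 3 and 4, with means of 5.56 and 5.33 for the pyruvate dehydrogenase list and 5.02 and 4.83 for the glycogen list. Wildtype array 5 was close to array 4, at 5.32 and 4.82. Over 6 measured adipocyte genes the means were also highest on wildtype arrays 3 and 4, at 6.84 and 5.65. They were 3.79 to 5.02 on the other wildtype arrays, with array 5 at 4.93, and 3.75 to 4.16 on the knockout arrays. Their part in these lists was not tested. The pentose phosphate list had 0 of 7 past the threshold and a median of -0.05, with H6pd at 5.01 and 4.51 and Rpe at 6.13 and 6.95. Over 21 other glycolytic genes, mostly isoforms of other tissues, 0 passed and the median was 0.11, with Pgk2 at 2.47 and 2.11 and Pklr at 4.71 and 4.38.

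Of 47 other hypoxia targets, a list that also holds Pfkfb3 and shares 3 genes with the glycogen list, 0 passed, 2 were higher and 4 lower at an unadjusted p of 0.05, and the median was 0.06. These counts are 4.26% and 8.51% of the list, below the 7.08% and 10.7% of all genes. Ddit4, an inhibitor of mTORC1 that many stresses and glucocorticoids induce, read 6.01, 5.86, 6.82 and 6.06 in knockout and 8.62, 7.40, 9.05, 7.38 and 10.54 in wildtype. The groups did not overlap, and the difference of -2.41 (SE 0.56) had a limma adjusted p of 0.0719. The creatine carrier gene Slc6a8 gave 9.53 and 9.91, with a limma adjusted p of 0.188. Without wildtype array 5 Ddit4 passed as lower, by -1.93 with a limma adjusted p of 0.0377, in a fit where 1.54% of all genes passed. Ero1a, an oxidase of protein folding, then passed as higher by 0.76 with a limma adjusted p of 0.0137. In the glycogen list Ppp1r3b, which directs phosphatase to glycogen, then passed as higher by 1.21 with a limma adjusted p of 0.00699; Ero1a and Ppp1r3b were named after their values were seen. Wildtype array 5 read 10.54 for Ddit4, 8.0 for Ero1a and 7.41 for Ppp1r3b, in each case the highest of all arrays.

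**Figure D4:**
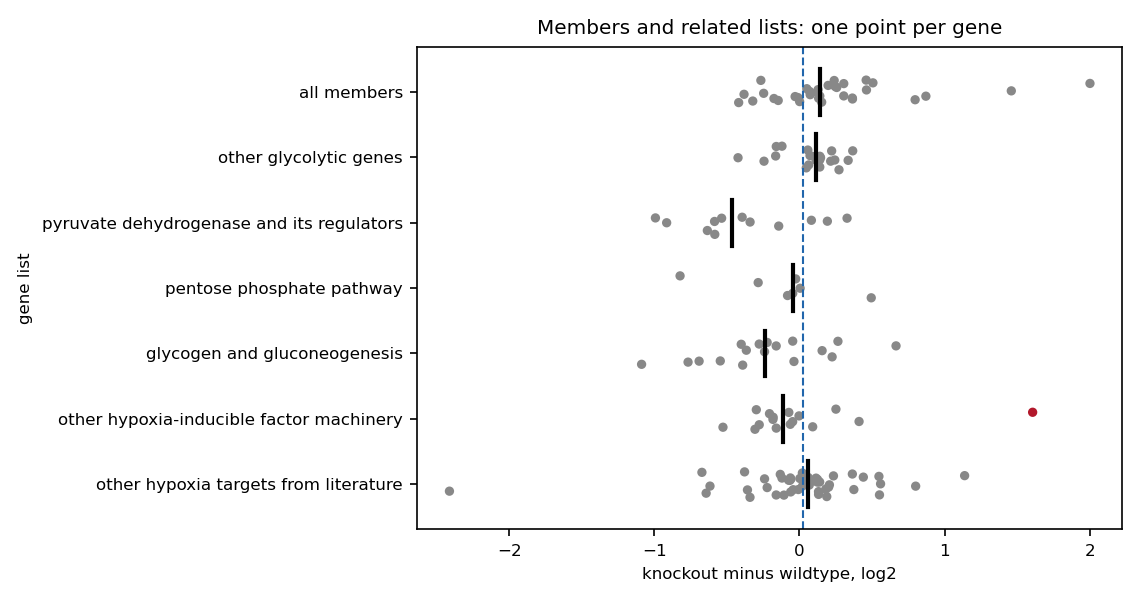
Each point is 1 gene, placed by its log2 difference, knockout minus wildtype, over all arrays; black bars are list medians, the dashed line is the median of all genes tested at 0.02, and red marks an adjusted p under 0.05 in limma. The single red point is Siah2 at 1.61, and the pyruvate dehydrogenase list has the lowest median, at -0.47.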

How the data were processed

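Expression on 9 arrays was deposited by the authors as log2 values in a single table. The submitters' processing notes name affy; its version, background correction and normalization were not stated, and the values were used unchanged. The platform annotation gave 34945 of 45037 probe sets 1 gene, 932 several and 9160 none, and 34741 were linked to RefSeq GRCm38.p6 genes through their gene identifiers. Knockout was compared with wildtype over 18193 genes in limma 3.58.1 under R 4.3.3, by lmFit and eBayes with no term but genotype, after the code had been tested on simulated data. P-values weigh each group difference against the spread between these arrays, moderated over all genes, and the fit treats the arrays as independent.

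All measured members were named. Values per array were given for members past the threshold and, in each role group, for the 2 with the lowest unadjusted p; Pfkfb3 and Hif1a were added after their values were seen. The members and all lists were chosen with earlier results of these data known. The alternatives tried covered the summary of probe sets, a filter on mean level, quantile normalization, median centring, trend and robust settings, array weights, an Xist covariate, the replicate block, a threshold of 0.10 and each array left out. A fit of every probe set was added after seeing the data.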

Additional observations from a re-analysis of the deposited data

Results flagged for a closer look

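Within each group, the gap of the most extreme array to its neighbour was compared with the group's range by Dixon's 95% value, which chance passes in about 1 of 20 groups; 66 groups were examined and 12 passed, 6 of them on wildtype array 5. On that array Hk2 read 8.26 against 5.76 to 6.02 on the other wildtype arrays, Ankrd37 7.78 against 3.22 to 3.49, Adm 7.27 against 5.65 to 6.09, Hif1a 9.65 against 8.44 to 8.66 and Pgam1 10.04 against 9.19 to 9.41, all high. Pfkfb4 was low there, at 6.27 against 7.32 to 7.58.

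Knockout array 3 was high for Pfkp, at 8.90 against 8.02 to 8.12 on the other knockout arrays, for Tpi1, at 10.92 against 10.32 to 10.41, and for Car12, at 4.47 against 4.30 to 4.32. Knockout array 4 was high for Slc16a3, at 3.65 against 2.53 to 2.69. It was low for Pkm, at 7.76 against 8.36 to 8.45, and for Kdm3a, at 7.26 against 7.63 to 7.67.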

How the results depend on the processing

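The number of members past the threshold was 0 higher and 0 lower with all arrays. It was 1 higher with quantile normalization, 1 with the replicate block, 1 at a threshold of 0.10 and 4 with array weights, where 2 were lower and 9.04% of all genes passed. With every probe set fitted it was 0 in each direction. Leaving out each array gave 0 to 1 higher and 0 lower, the 1 being Hk2 without wildtype array 5; all genes passed at 0.341% to 1.54%. The share of all genes was 0.654% with the block and 3.14% at the threshold of 0.10. The 4 with array weights were Hk2, Adm at 1.56, Ndrg1 at 0.65 and Ldha at 0.39, with limma adjusted p values of 0.000239, 0.00935, 0.0340 and 0.0392. The median difference lay within 0.09 to 0.23 under the alternatives for which it was computed, which leave out the fit of every probe set. Deviations of same-numbered arrays from their group means had correlations of -0.21, -0.10, -0.21 and 0.18 across genes. With so few arrays these cannot settle whether the numbers pair the animals. The block gave Hk2 a difference of 2.47 and a limma adjusted p of 0.00903, and it takes wildtype array 5 out of the comparison.

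Of 614 values of single members under alternatives 558 kept their direction and side of the threshold, 10 passed it and 46 turned sign. Of the 46, 0 were past the threshold, and the cause was not tested. The 0.10 threshold, the level filter and the trend and robust settings keep the main differences, so sign could not turn there. The mean of probe sets also leaves the differences of members with a single probe set unchanged. The replicate block repeats the differences of the fit without the wildtype array that it takes out. The 558 thus count values that could not turn. Among the 10, Hk2 at the 0.10 threshold is the main fit itself. With the mean of probe sets Aldoa turned to 0.064 and Hif1a to 0.11. Without less specific probe sets Pfkl turned to -0.26, Pgk1 to -0.066 and Hif1a to 0.19, and with median centring Mxi1 to -0.040. With array weights the turned values were 0.060 for Pgam1, 0.13 for Pdk1, 0.53 for Hif1a, 0.0045 for Car12, 0.20 for Higd1a, 0.032 for Kdm3a and -0.071 for Mxi1. With the Xist covariate they were -0.040 for Pfkp, -0.013 for Pfkm, -0.050 for Aldoc, -0.20 for Pkm, 0.072 for Hif1a, 0.020 for Higd1a, -0.12 for P4ha1 and 0.41 for Kdm3a. With the replicate block they were 0.071 for Hif1a, 0.020 for Car12, 0.094 for Higd1a and 0.039 for Kdm3a. Leaving out each array gave ranges through 0 for Slc16a3 (-0.061 to 0.31), Pfkp (-0.070 to 0.22), Aldoa (-0.12 to 0.020), Aldoc (-0.018 to 0.11), Tpi1 (-0.0076 to 0.28), Pkm (-0.027 to 0.24), Hif1a (-0.36 to 0.11), Epas1 (-0.036 to 0.18), Car12 (-0.28 to 0.020), Higd1a (-0.073 to 0.11), P4ha1 (-0.064 to 0.51), Kdm3a (-0.44 to 0.039) and Mxi1 (-0.14 to 0.065).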
